A study of Mus musculus with 4 samples.

Results

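The genes described here encode the proteins of the cytosolic ribosome. They were taken from the count table as protein-coding genes of GENCODE release M21 whose symbol begins with Rpl or Rps and a digit, the stalk genes Rplp0, Rplp1 and Rplp2, and Rpsa, without the Rps6k kinases and symbols beginning with Gm. The rule found 92 of 53715 genes. One of them, Rps19bp1, encodes a protein that binds Rps19 rather than a ribosomal protein, so it was kept apart, which left 91 genes: 34 of the small and 57 of the large subunit. Of these, 77 are the standard genes (31 small, 46 large), 7 are paralogs with a name such as Rps27l or Rpl10l, and 7 are copies made by reverse transcription of an mRNA that the annotation nevertheless calls protein-coding, called retrocopies below. Paralogs and retrocopies were told apart by symbol alone, and how a paralog arose was not examined. The paralog Rpl10l, for instance, has no annotated intron. They lay on 20 chromosomes, with 14 on chromosome 7.

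The libraries came from poly(A) RNA of whole mouse embryos of the strain C57BL/DBA2 at the 2-cell stage, the stage at which the mouse genome takes over from RNA stored in the egg. All zygotes were collected from the oviduct, injected and cultured in KSOM, an embryo culture medium. Control embryos (2 libraries) received siNC, the labels' control siRNA, and knockdown embryos (2 libraries) received an siRNA of SPENH0335, each at 20 μM. From the title of the series SPENH0335 is read as an enhancer-derived RNA; no row of the table carries its name, so the knockdown itself was not measured. Neither the number of embryos in a library nor the origin of replicates from separate collections is stated in the labels, so the p-values reflect library-to-library spread alone, and this may be technical.

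A ribosome holds one copy of nearly every ribosomal protein, apart from the stalk proteins Rplp1 and Rplp2, which are present as dimers, so cells in general keep the output of these genes in balance. Most of their mRNAs begin with a run of pyrimidines, the 5′ terminal oligopyrimidine (TOP) motif, through which the kinase mTOR and the binding protein Larp1 set their translation and stability. A growing oocyte stores ribosomes and mRNAs, and the early embryo lives on this store until its own genes, including those for ribosomal proteins, are transcribed. Several ribosomal proteins have a second gene that is used in particular tissues; Rpl10l and Rpl39l, for instance, are known from male germ cells.

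Total counts per library were between 78865491 and 99011109, and between 29472 and 29876 genes had a count. Ribosomal protein genes took 0.259% and 0.307% of the counts in the control and 0.302% and 0.203% in the knockdown libraries. Levels are given as CPM, the counts per 1000000 counts of a library, after scaling by trimmed means of M-values (TMM), which corrects for library composition, or, between genes, as TPM, a share of all transcripts scaled to the same total, which divides by gene length as the union of exons. Oocyte and 2-cell embryo markers were high in every library: the 22 genes of that list together had between 9530 and 10214 CPM, with all 22 detected. The 20 cumulus and granulosa markers together had between 306 and 377 CPM (1 of them at 0 everywhere), the 15 sperm markers between 186 and 196 CPM (2 at 0) and the 16 markers of blood, oviduct and stroma between 83.4 and 134 CPM (3 at 0: Hbb-bs, Hbb-bt and Col3a1). The other globin genes of that list were detected, Hba-a1 with 26.2 and 27.1 CPM in control and 24.9 and 10.4 CPM in knockdown and Hba-a2 with 7.40, 12.6, 10.4 and 4.21 CPM in the same order. Single genes held a large part of the last 3 sums. Serpine2 had between 224 and 282 CPM in the cumulus and granulosa list. Odf2 had between 172 and 179 CPM in the sperm list, and Pecam1 between 49.3 and 61.1 CPM in that of blood, oviduct and stroma. These sums are thus not a level shared by the genes of a list. In whole embryos, fewer cells of a type and less RNA per cell cannot be told apart.

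One gene stood above all others. Rps27l, a paralog of the small-subunit gene Rps27, had 1044 and 1223 TPM in the control and 1183 and 988 TPM in the knockdown libraries, and ranked 95 among all genes by mean TPM. The next gene, Rpl41, had a mean of 246 TPM, so no library of any other ribosomal protein gene came near the lowest library of Rps27l. Rps27l alone gave between 21.8% and 25.9% of the summed TPM of the 91 genes. Its place at the top held with the longest transcript as gene length (1318 TPM).

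After Rps27l, Rps3a1, Rps2 and Rps16 were among the small-subunit genes of highest level. Rps3a1, a structural protein of the small subunit, had 143 and 214 TPM in control and 213 and 120 TPM in knockdown. Rps2, which lines the mRNA entry channel, had 124 and 138 TPM in control and 99.5 and 103 TPM in knockdown. Rps16 had 101 and 128 TPM in control and 110 and 86.8 TPM in knockdown. Their ranges over the 4 libraries overlapped, although within each library Rps3a1 was above both Rps2 and Rps16.

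The large subunit was led by Rpl41, Rplp0, Rpl4, Rplp1 and Rplp2. Rpl41, which codes for a very short and basic protein, had 260 and 260 TPM in control and 302 and 160 TPM in knockdown. Rplp0, the base of the stalk that recruits translation factors, had 214 and 310 TPM in control and 229 and 192 TPM in knockdown. Rpl41 and Rplp0 overlapped in level. Rpl4 stood out for its narrow range, with 164 and 156 TPM in control and 141 and 149 TPM in knockdown. The stalk proteins Rplp1 (107, 137, 115 and 61.2 TPM, in the order control replicates 1 and 2, knockdown replicates 1 and 2) and Rplp2 (95.8, 131, 110 and 81.7 TPM) had close means, 104.9 and 104.7 TPM.

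The 77 standard genes were far from equal. Their mean TPM had a median of 28.8, quartiles of 18.8 and 54.9, and ran from 3.93 TPM for Rps20 to 246 TPM for Rpl41, a 62.5-fold range. The middle 50% of the genes thus lay within 2.92-fold. At the low end, Rps20, a small-subunit protein, had 3.38 and 4.16 TPM in control and 5.54 and 2.62 TPM in knockdown, and Rpl12, a protein next to the stalk, had 4.47, 4.21, 4.93 and 3.19 TPM in the same order. Part of this range depends on the annotated length: the union of exons ran from 383 to 6270 bases over the standard genes. A long retained intron or alternative end in the annotation divides the counts by a longer gene, and which transcripts these embryos used was not measured. Of the standard genes, 51 had at least 10 CPM in every library.

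**Figure D1:**
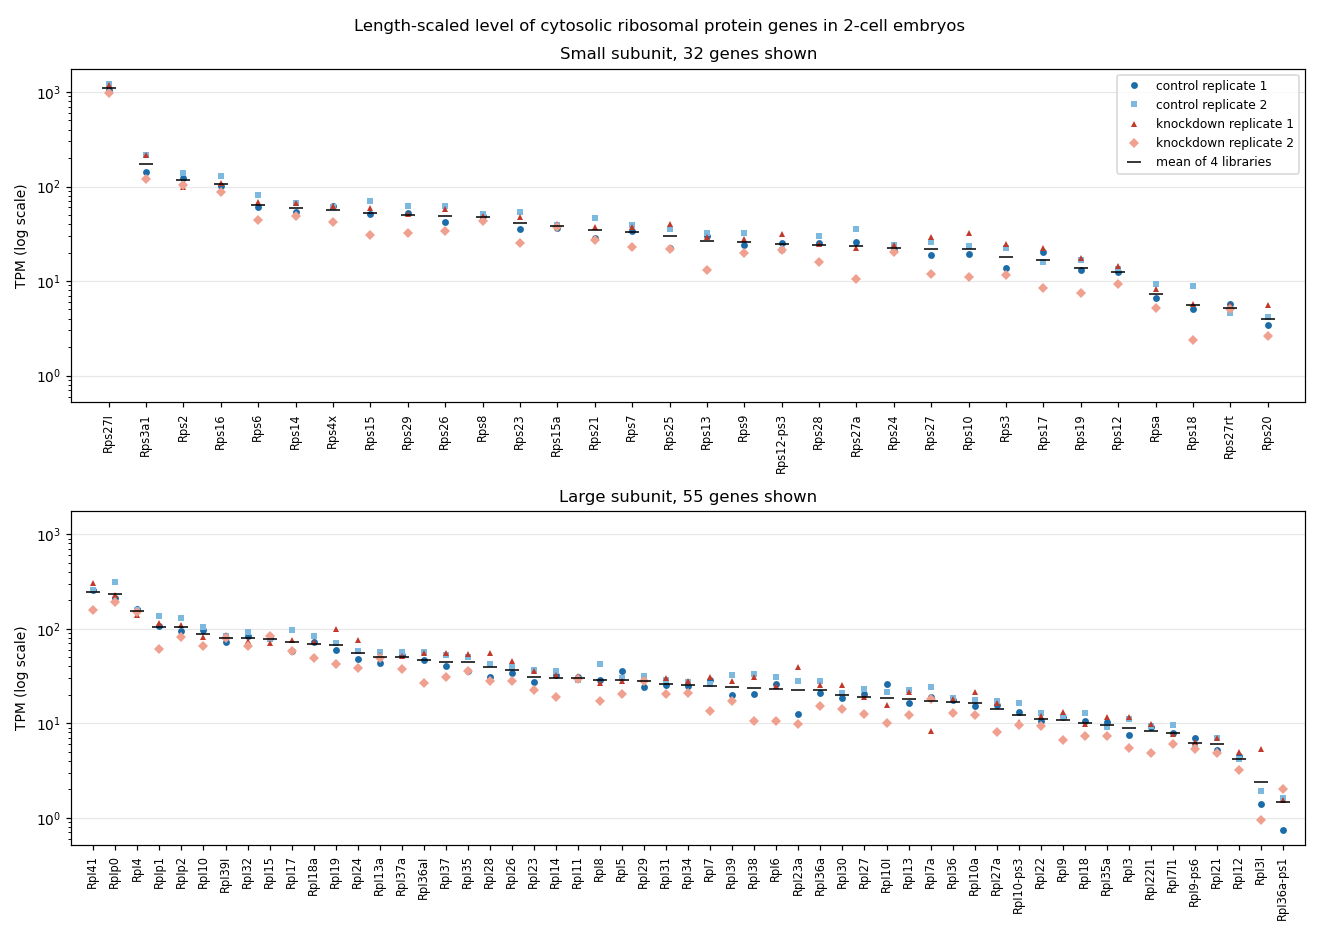
Level of each ribosomal protein gene in TPM (log axis) in the 4 libraries, ordered by mean within the small subunit (top) and the large subunit (bottom); points are libraries and black dashes the means. Rps27l lies between 988 and 1223 TPM, while every library of the other genes lies at or below 309.9 TPM; 2 retrocopies at 0 in every library and 2 further genes are not drawn.

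Small and large subunit were compared in every library. Summed over all genes, the small subunit had 1163 and 1398 CPM in control and 1386 and 1004 CPM in knockdown, and the large subunit 1408 and 1620 CPM in control and 1561 and 1140 CPM in knockdown. Per length, the ratio of small to large was 1.02 and 1.05 in control and 1.07 and 1.12 in knockdown. The near-equal sums rested on Rps27l: without it the ratio was 0.571, 0.601, 0.615 and 0.573 in the same order. Among the standard genes alone the ratio of the sums was 0.606, 0.640, 0.650 and 0.608. The ratio thus varied little between libraries (0.62 ± 0.024 in control and 0.63 ± 0.030 in knockdown, SD, n = 2 each), while the sums themselves moved by more. The large subunit has more genes; gene for gene, the median standard gene had 33.3 TPM in the small and 28.4 TPM in the large subunit, with quartiles that overlapped (21.6 to 54.7 and 18.3 to 53.8 TPM).

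Rps27 and Rps27l encode zinc-binding proteins of the same ribosomal position, and their genes can be told apart at the level of bases. Their coding sequences are shown because the level of Rps27l against Rps27 rests on the reads being assigned to the right gene. They come from GENCODE M21 transcripts on GRCm38 and are spliced from 4 coding exons each, Rps27 within the gene at chr3:90212522-90213651 (minus strand) and Rps27l within the gene at chr9:66946086-66949516 (plus strand). Capitals mark bases that differ between both.
Rps27: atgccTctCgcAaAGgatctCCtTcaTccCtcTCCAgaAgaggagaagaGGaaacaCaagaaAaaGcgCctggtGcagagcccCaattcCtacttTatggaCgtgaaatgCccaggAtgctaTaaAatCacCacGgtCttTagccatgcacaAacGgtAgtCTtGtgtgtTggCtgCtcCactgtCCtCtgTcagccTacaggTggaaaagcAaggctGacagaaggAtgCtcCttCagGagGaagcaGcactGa
Rps27l: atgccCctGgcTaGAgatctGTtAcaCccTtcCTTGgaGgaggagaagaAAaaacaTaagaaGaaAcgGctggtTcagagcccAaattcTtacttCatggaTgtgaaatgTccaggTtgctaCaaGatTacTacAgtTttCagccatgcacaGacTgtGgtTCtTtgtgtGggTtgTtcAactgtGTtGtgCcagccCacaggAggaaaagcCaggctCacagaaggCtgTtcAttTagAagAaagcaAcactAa

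Both coding sequences have 255 bases, of which 194 (76.1%) are identical and 61 differ. The differences are spread along the whole sequence, and 53 of the 61 fall on the last base of a codon. Of the 54 codons that differ, 51 code for the same amino acid and 3 do not. The longest run of identical bases is 11, and no stretch of 50 bases is shared by any of their transcripts. Of the 50-base stretches of Rps27l, 11.2% also occurred in 4 other genes, which together had at most 0.192 CPM in a library. For Rps27 the share was 25%, with 9 other genes that together had between 0.841 and 1.06 CPM. Both partner sums are below the CPM of the genes themselves. Both shares were taken over all annotated transcripts of a gene. For Rps27, 296 of 1184 stretches were shared, while its principal transcript has 345 bases, so the share within the mRNA may be higher. How reads matching several genes were counted is not stated, so low partner sums do not show that Rps27 was counted in full. How far the level of Rps27l against Rps27 depends on this was not measured.

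In counts, Rps27l had 313 and 362 CPM in control and 360 and 306 CPM in knockdown. Rps27 had 7.23 and 9.90 CPM in control and 11.5 and 4.76 CPM in knockdown. The lowest library of Rps27l was above the highest of Rps27 by a wide margin. Per length, Rps27l exceeded Rps27 by 55.4-fold and 46.8-fold in control and 40.2-fold and 82.3-fold in knockdown. With the length of the principal transcript, chosen after seeing the data, the ratio was lower in each library but remained at least 21.7. The ratio was highest in knockdown replicate 2, where Rps27 had its lowest value.

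The start regions of both genes also differ in sequence. They are shown from 50 bases before to 25 bases after the start, from RefSeq on GRCm38.p6, with 2 kinds of motif in capitals: CTTTC on the sense strand, the core of many TOP starts, and CCGGAAG on either strand, a binding sequence of ETS-family factors such as Gabpa.
Rps27, chr3:90213624-90213698, minus strand: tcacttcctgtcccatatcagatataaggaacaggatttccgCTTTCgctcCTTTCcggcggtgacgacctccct
Rps27l, chr9:66946036-66946110, plus strand: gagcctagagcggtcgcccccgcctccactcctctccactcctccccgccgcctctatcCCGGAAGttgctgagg

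The Rps27 window holds CTTTC and the Rps27l window does not, while CCGGAAG occurs only in that of Rps27l. Only these exact sequences were searched, so a window without a match may still hold a TOP start or an ETS-family site. Rps27l has a second annotated start, whose window held neither. RefSeq windows were matched for 65 of the genes, with 77 windows; the other 26 genes had none. CTTTC from 25 bases before to 50 after the start was found in 35 of the 77 windows (45.5%), against 9.63% of all 32851 windows. CCGGAAG in the full window of 250 bases before to 50 after the start was found in 27 of 77 (35.1%), against 8.86% of all windows. A further core promoter sequence, TATAAA on the sense strand of the full window, was found in 6 of 77 (7.79%), near the 8.32% of all windows. No motif searched is contained in another, and a match is a description of the sequence only.

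Rpl39l was the other paralog above its standard gene under each length used. Rpl39 and Rpl39l encode a short protein at the wall of the tunnel through which the new peptide leaves. Their coding sequences, also from GENCODE M21 on GRCm38, lie in 3 coding exons of the gene at chrX:37082520-37085402 (minus strand) for Rpl39 and in 1 coding exon of the gene at chr16:10170226-10174911 (plus strand) for Rpl39l. They are shown to compare how far the coding bases have diverged, and capitals again mark differing bases.
Rpl39: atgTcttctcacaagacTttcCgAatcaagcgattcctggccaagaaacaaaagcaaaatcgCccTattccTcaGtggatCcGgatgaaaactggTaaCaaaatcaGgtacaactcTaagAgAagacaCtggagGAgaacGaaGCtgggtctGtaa
Rpl39l: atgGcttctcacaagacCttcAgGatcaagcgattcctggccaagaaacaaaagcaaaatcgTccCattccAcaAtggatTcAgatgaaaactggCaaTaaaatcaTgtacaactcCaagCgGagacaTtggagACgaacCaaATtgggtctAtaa

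Here 133 of 156 bases (85.3%) are identical, and 16 of the 23 differing bases are last bases of a codon. The longest identical run is 38 bases, longer than for Rps27 and Rps27l, and again no 50-base stretch is shared. Rpl39l had 21.9 and 25.3 CPM in control and 26.6 and 25.3 CPM in knockdown, with little spread in either group. Rpl39 had 10.5 and 16.98 CPM in control and 15.0 and 9.34 CPM in knockdown. The TPM ratio of Rpl39l to Rpl39 was 3.61 and 2.57 in control and 3.06 and 4.67 in knockdown; with the longest transcript as length it was 1.59, 1.13, 1.35 and 2.06.

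The remaining pairs had other orders. Rpl10l had 9.79 and 8.005 CPM in control and 6.01 and 3.88 CPM in knockdown, against 73.1, 77.9, 62.4 and 51.1 CPM for Rpl10, an X-linked gene for a protein near the peptidyl transferase centre. The TPM ratio of Rpl10l to Rpl10 was therefore between 0.152 and 0.269. Rpl3l, the heart and skeletal muscle form of Rpl3, had 0.846 and 1.15 CPM in control and 3.28 and 0.596 CPM in knockdown, so that knockdown replicate 1 alone was high. Rpl3 had 8.78 and 12.7 CPM in control and 13.7 and 6.69 CPM in knockdown. Rpl7l1 was below Rpl7 (TPM ratio between 0.245 and 0.447), with 10.3, 12.3, 9.93 and 7.92 CPM against 28.5, 25.5, 31.2 and 13.6 CPM.

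For 2 pairs the order depended on the length. Rpl36al (23.4, 27.9, 28.1 and 13.6 CPM) was above Rpl36a (12.8, 16.9, 15.6 and 9.48 CPM) in counts and in TPM (1.75 to 2.24), but below it with the length of the principal transcript (0.542 to 0.694). By longest transcript the ratio of Rpl36al to Rpl36a was 1.17 and 1.05 in control and 1.14 and 0.911 in knockdown. Their coding sequences, of 321 bases each, differ at 39 bases in 38 codons, all of them coding for the same amino acid. Rpl22l1 (6.73, 6.75, 7.39 and 3.65 CPM) was below Rpl22 (11.2, 13.5, 13.1 and 10.4 CPM) in counts and in TPM (0.514 to 0.876), but above it with the principal transcript (1.31 to 2.22). The Rpl22l1 transcript used there has only 552 bases, with a coding sequence of 195 bases against 387 in Rpl22. With the longest transcript as length the ratio was 0.378 to 0.644. Rps4l, the partner of the X-linked Rps4x, is a transcribed processed pseudogene in GENCODE M21 and so no member; it stood at 0.156 to 0.271 of Rps4x in TPM. Rps4x had 37.0 and 35.8 CPM in control and 37.8 and 26.3 CPM in knockdown.

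**Figure D2:**
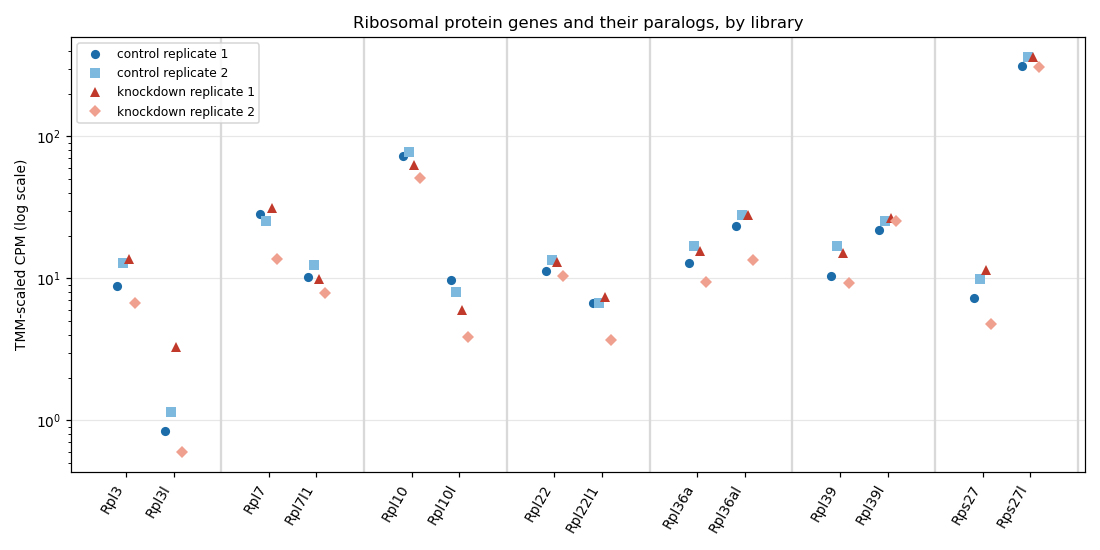
TMM-scaled CPM (log axis) of 7 standard genes and their paralogs, one point per library. Rps27l lies at or above 306 CPM and Rps27 at or below 11.5 CPM in every library, while Rpl3l and Rpl10l lie below their partners in every library.

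Retrocopies and pseudogenes share long stretches with the genes they come from, so their counts depend on how shared reads were assigned, a step the labels do not describe. Over the standard genes, a median of 21.03% of the 50-base stretches also occurred in another gene, with the highest share, 81.1%, for Rpl36. In 29 of the 77 genes the share was at least 25%. The stretches were taken over all annotated transcripts of a gene, so the share within a single mRNA can be higher. The share of reads that match several genes was not measured. The retrocopies were low in CPM. The highest were Rps12-ps3, with 4.59, 3.797, 5.76 and 3.99 CPM (control replicates 1 and 2, knockdown replicates 1 and 2) and all of its stretches shared, and Rpl10-ps3, with 3.76, 4.53, 2.94 and 2.77 CPM and 96.1% shared. Per length, Rps12-ps3 had a mean of 24.7 TPM, against 12.5 TPM for Rps12. In counts the order was the reverse in every library, with 9.35, 9.95, 10.9 and 7.17 CPM for Rps12. The order of these genes thus depended on the length. Rps27rt had 0.778, 0.622, 0.787 and 0.713 CPM, with 91.1% of its stretches shared. Rpl9-ps6 had 1.82, 1.51, 1.71 and 1.45 CPM, and Rpl36a-ps1 had 0.124, 0.261, 0.259 and 0.341 CPM. Rpl9-ps1 and Rpl36-ps4 had 0 counts in all 4 libraries, which allows up to 3 counts or 0.0303 to 0.0380 CPM per library, for counting error only. The standard gene with the lowest CPM was Rpl36, at 2.48, 2.59, 2.57 and 1.86 CPM, below Rps12-ps3 and Rpl10-ps3 in every library.

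Annotated pseudogenes named for these genes, with symbols such as Rpl17-ps10, formed 289 rows in 60 families, of which 226 rows had a count. Pseudogenes with symbols of another form were not counted here. Their counts came to 8.61% and 7.70% of those of the 91 genes in control and 8.08% and 10.1% in knockdown. Over the mean of the 4 libraries, the pseudogenes of 3 families together exceeded the gene they are named for: Rpl7a (1.61-fold), Rpl17 (1.4995-fold) and Rpl36 (1.18-fold). Of these, Rpl17 pseudogenes were above Rpl17 in every library, with 60.5, 49.6, 47.5 and 55.5 CPM against 28.5, 46.5, 37.7 and 29.4 CPM. The Rpl7a pseudogenes were above Rpl7a except in control replicate 2 (14.3 against 15.7 CPM). The Rpl36 pseudogenes had 2.15, 3.03, 4.80 and 1.21 CPM, below Rpl36 in control replicate 1 and knockdown replicate 2. Rpl19 pseudogenes, below Rpl19 on average, were above it in control replicate 1 (23.2 against 22.1 CPM) and knockdown replicate 2 (24.002 against 16.4 CPM). Families by name do not hold all genes that share sequence. The 82 genes sharing a 50-base stretch with Rpl29 together had 29.9 to 36.2 CPM, against 9.92 to 12.9 CPM for Rpl29. For Rpl21, 84 genes had 32.9 to 50.9 CPM, against 6.24 to 8.84 CPM. Such a gene need not be a pseudogene. How reads were divided between gene and pseudogenes was not measured, so the levels of all these genes are uncertain.

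Knockdown against control was tested with edgeR's quasi-likelihood test over all 25565 genes with enough counts, with Benjamini-Hochberg adjustment; 89 of the 91 genes were tested. No gene of the table passed an adjusted p of 0.05 (0%), and so no ribosomal protein gene did; the smallest adjusted p over all genes was 0.595. DESeq2 called 53 of 36863 genes (0.144%), none of them a ribosomal protein gene. At an unadjusted p under 0.05, edgeR counted 2.29% of all genes lower and 1.56% higher in knockdown; among the 89 genes 1 was lower and 0 higher. Over the 89 genes, 65 (73.0%) had a log2 fold change below 0, with a median of -0.16, against 50.3% and a median of -0.0025 over all genes tested. This direction turned with 1 library: without knockdown replicate 2, 27 were below and 62 above 0 (median 0.11), and without control replicate 2, 44 were below and 45 above (median 0.0047). The medians of the small (-0.17) and the large subunit (-0.15) were close. Both knockdown libraries lay below both control libraries in 17 of the 89 genes (19.1%), near the 17.1% of all genes, and above them in 0 of 89, against 15.6% of all genes. For 43 of the 89 genes the 95% interval of the fold change lay within 2-fold either way, against 8126 of all 25565 genes. Among genes of at least 10 CPM on average it did so for 40 of 70, against 7184 of all 8185. For the remaining ribosomal protein genes these libraries do not show whether a 2-fold difference is present.

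On the lower side, Rpl10, Rps2, Rpl10l and Rps27a had the smallest p. Rpl10 had 75.5 ± 3.43 CPM in control and 56.7 ± 7.95 CPM in knockdown (SD, n = 2 each), a log2 fold change of -0.41 (SE 0.16; unadjusted p = 0.0408, adjusted p = 0.9999 by edgeR). Its groups did not overlap. Rps2 had 83.2 and 91.7 CPM in control and 67.9 and 71.7 CPM in knockdown, again without overlap (log2 -0.32, SE 0.13). The paralog Rpl10l, whose values are given above, also did not overlap (log2 -0.85, SE 0.34). Rps27a, which encodes a fusion of ubiquitin with a small-subunit protein, had 18.8 and 25.5 CPM in control and 16.7 and 7.90 CPM in knockdown (log2 -0.85, SE 0.40), where the second knockdown library was the low one.

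The genes with the smallest p on the higher side were further from any threshold. Rpl3l, whose values are given above, had a log2 fold change of 0.96 (SE 0.87, unadjusted p = 0.313 by edgeR), with 1 knockdown library high and the other below both control libraries. Rpl39l (log2 0.13, SE 0.19) and Rps15a (83.6, 88.5, 93.7 and 88.3 CPM; log2 0.08, SE 0.12) differed by less than their errors. Rps27l, the most abundant, had a log2 fold change of -0.02 with a 95% interval from -0.35 to 0.31.

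**Figure D3:**
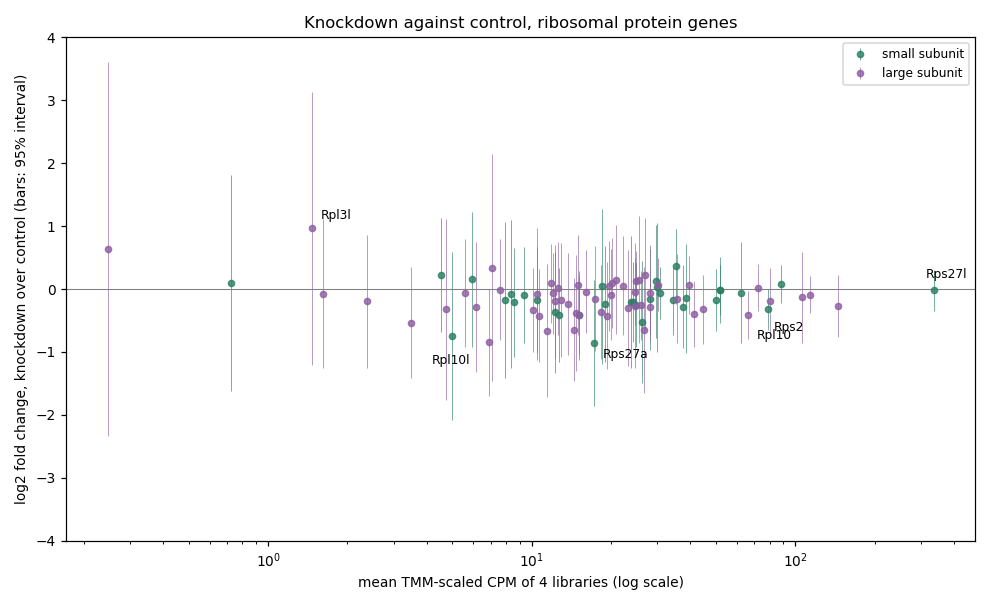
Log2 fold change of knockdown over control (edgeR) against mean CPM (log axis) for the 89 tested genes; bars are 95% intervals and colours the subunit. Most points lie slightly below 0, and the intervals are wide at low levels, as for Rpl3l (-1.21 to 3.13), and narrower at high levels, as for Rps27l (-0.35 to 0.31).

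The libraries differed more than the groups. Knockdown replicate 2 had the lowest value of the 4 libraries in 73 of the 89 genes (82.0%), against 29.8% of all genes tested, and it was below knockdown replicate 1 in 84 of 89 (94.4%), against 51.0%. The median difference between the knockdown replicates, replicate 2 minus replicate 1 on the log2(CPM + 0.5) scale, was -0.59 over the ribosomal protein genes and -0.014 over all genes. The control replicates also differed: replicate 2 minus replicate 1 had a median of 0.25. As a median deviation from the mean of the 4 libraries, the set stood at -0.05 and 0.23 in control and 0.19 and -0.39 in knockdown. Both subunits did the same (-0.44 for the small and -0.38 for the large subunit in knockdown replicate 2). In sums, all 91 genes had 2570 and 3018 CPM in control and 2946 and 2144 CPM in knockdown, or 2794 ± 317 and 2545 ± 567 CPM (SD, n = 2), so control replicate 1 lay between the knockdown values and control replicate 2 above both.

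**Figure D4:**
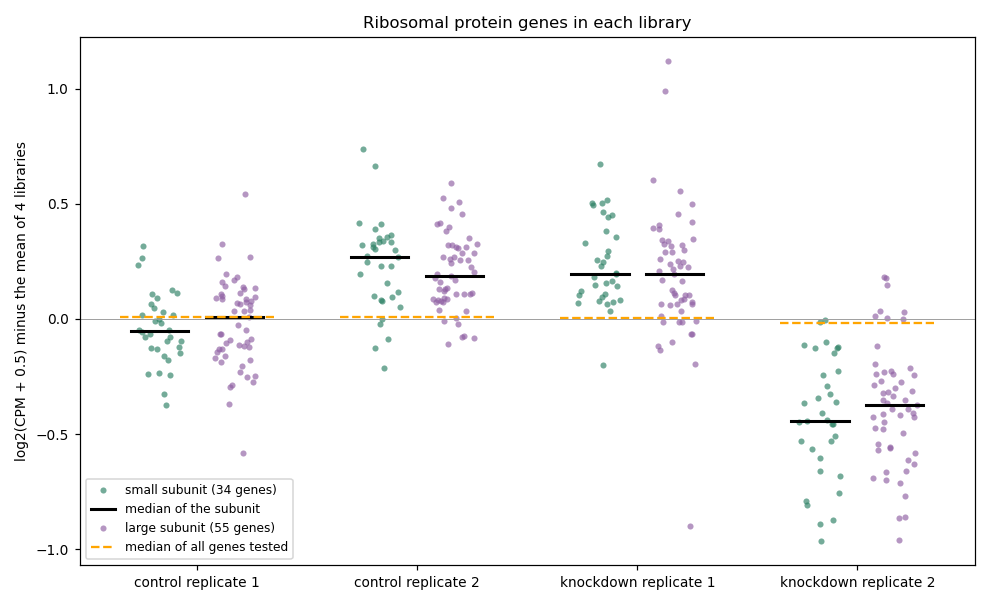
Deviation of each tested gene from its mean over the 4 libraries, as log2(CPM + 0.5), by library and subunit; black bars are subunit medians and the dashed line the median of all genes tested. The points sit mostly below 0 in knockdown replicate 2 and mostly above 0 in control replicate 2 and knockdown replicate 1.

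Single genes show the size of this difference. Rps10, of the head of the small subunit, had 27.8 CPM in knockdown replicate 1 and 9.65 CPM in replicate 2, with 16.6 and 19.9 CPM in control between them. Rps19, a small-subunit protein known from Diamond-Blackfan anaemia, had 30.9 and 13.2 CPM in knockdown and 22.3 and 28.7 CPM in control. Rpl19, a large-subunit protein that reaches across to the small subunit, had 37.5 and 16.4 CPM in knockdown and 22.1 and 26.5 CPM in control. These 3 genes had the largest differences between the knockdown replicates among those of at least 10 CPM on average. The genes that went against the pattern, singled out after their values were seen, were Rpl7a, Rpl15, Rpl4, Rps2 and the retrocopy Rpl36a-ps1, which had a higher value in replicate 2 than in replicate 1. Rpl7a had 12.4 and 15.7 CPM in control and 5.53 and 12.2 CPM in knockdown, so that replicate 1 was the low one; its pseudogenes had 21.9 and 22.0 CPM in the same knockdown libraries.

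The difference between the knockdown replicates was seen at each level of expression. Among the 70 genes of at least 10 CPM, the median difference was -0.63 in the 23 genes of lowest level, -0.83 in the 23 of middle level and -0.33 in the 24 of highest level. The 5 tested retrocopies had a median of -0.085, and the 139 tested pseudogene rows -0.13.

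Several values moved with this pattern. The TMM factor of knockdown replicate 2 was 0.949, against 1.01 to 1.02 in the other libraries. The standard genes are short: their longest transcript had a median of 1094 bases, against 3162 bases for tested protein-coding genes. Other protein-coding genes of at least 10 CPM with a longest transcript under 1000 bases had a median difference of -0.14 between the knockdown replicates and were lowest in knockdown replicate 2 in 44.5%, while those of 1000 to 2000 bases had 0.071. Of the 12 tested blood, oviduct and stroma markers 6 were lowest in knockdown replicate 2 and 7 highest in control replicate 2. Of all genes tested, 29.8% were lowest in knockdown replicate 2 and 22.9% highest in control replicate 2. The whole marker list had 101 and 134 CPM in control and 102 and 83.4 CPM in knockdown. Within that list, singled out after their values were seen, Lyz2 (4.18, 19.4, 4.19 and 1.44 CPM) and Cd74 (5.06, 17.8, 7.76 and 1.51 CPM) were highest in control replicate 2 and lowest in knockdown replicate 2. Other genes of the list had other orders. Krt7 (2.04, 1.17, 0.197 and 0.586 CPM) was highest in control replicate 1 and lowest in knockdown replicate 1. Pecam1 (50.5, 49.4, 49.3 and 61.1 CPM) was highest in knockdown replicate 2. The part of these values in the pattern was not tested.

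Other genes of translation did not show the same difference in their medians. The 78 mitochondrial ribosomal protein genes had a median of 0.018 between the knockdown replicates and the 53 tested initiation and elongation factors 0.11. The 24 other TOP mRNAs had a median of 0.053, and their sum was 3034 and 3212 CPM in control and 3034 and 3271 CPM in knockdown. Whether these sets differ from the ribosomal protein genes was not tested.

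Fau and Rack1 encode ribosomal proteins but have symbols outside the pattern. Fau, which encodes a ubiquitin-like protein fused to a small-subunit protein, had 34.3 and 42.1 CPM in control and 48.2 and 30.0 CPM in knockdown. It was highest in knockdown replicate 1 and lowest in replicate 2. Rack1, a scaffold on the small subunit, had 41.4 and 45.2 CPM in control and 30.8 and 54.7 CPM in knockdown, the reverse order. Rps19bp1, the gene kept apart, had 14.9 and 17.3 CPM in control and 18.1 and 11.6 CPM in knockdown.

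Genes around the ribosomal protein mRNAs were counted by role, and none passed the adjusted test. Of 24 other TOP mRNAs, 0 were lower and 1 was higher at an unadjusted p under 0.05 by edgeR, against 2.29% and 1.56% of all genes. This was Eef2, the elongation factor that moves the ribosome along, with 24.9 and 24.2 CPM in control and 31.1 and 35.7 CPM in knockdown (log2 0.45, SE 0.18). Ybx1, an mRNA-packaging protein abundant in oocytes, had 130 and 131 CPM in control and 151 and 162 CPM in knockdown. On the other side, the initiation factor subunits Eif3h (46.3, 47.0, 33.4 and 40.0 CPM) and Eif3f (6.47, 7.63, 5.35 and 3.54 CPM) had the smallest p. The median of the list was 0.0047.

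Of 18 genes that control TOP mRNAs, 2 were lower and 0 higher at an unadjusted p under 0.05 by edgeR, against the same 2.29% and 1.56% of all genes. Tia1, an RNA-binding protein of stress granules that binds TOP mRNAs, had 4.34 and 3.69 CPM in control and 1.14 and 1.56 CPM in knockdown. Rps6kb2, an S6 kinase downstream of mTOR, had 1.70 and 1.58 CPM in control and 0.466 and 0.564 CPM in knockdown. Both had groups that did not overlap, at low counts. The kinase gene Mtor had 19.3 and 19.1 CPM in control and 23.9 and 21.9 CPM in knockdown, and Eif4e, the cap-binding protein, 895 and 895 CPM in control and 905 and 1089 CPM in knockdown.

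Of 19 tested chaperones and importers of ribosomal proteins, none had an unadjusted p under 0.05 in either direction. Kpnb1, an importin, was nearest, with 81.4 and 87.4 CPM in control and 100.4 and 108 CPM in knockdown. Bccip, a chaperone of Rpl23, had 57.5, 64.5, 68.1 and 74.1 CPM. On the lower side were Rrs1, a ribosome assembly factor of the large subunit (7.97, 7.92, 5.97 and 3.82 CPM), and Ipo4, an importin (4.02, 5.15, 1.76 and 3.53 CPM).

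Of 15 tested transcription factors of ribosomal protein genes, none had an unadjusted p under 0.05. Gabpa, whose binding sequence was searched above, had 61.2 and 94.6 CPM in control and 79.5 and 35.3 CPM in knockdown, so that it was highest in control replicate 2 and lowest in knockdown replicate 2. Yy1 had 27.3, 28.2, 45.0 and 26.5 CPM, so that only knockdown replicate 1 was high. Elk1 (1.91, 1.18, 1.58 and 0.607 CPM) and Elf1 (35.8, 32.5, 39.9 and 38.0 CPM) were the other genes of this list with the smallest p. Of 13 tested genes of ribosome quality control, again none had an unadjusted p under 0.05. Ltn1, the ubiquitin ligase for stalled peptides, had 41.8, 39.3, 31.8 and 35.2 CPM, and Pelo, which splits stalled ribosomes, had 2.04, 2.45, 5.003 and 2.94 CPM. Edf1 (5.55, 6.35, 5.87 and 2.23 CPM) and Nemf (94.3, 98.4, 110 and 108 CPM) had the next smallest p of the list.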

How the data were processed

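Poly(A) RNA of 4 libraries was measured by sequencing of pre-amplified cDNA. The authors deposited counts per gene as whole numbers, which by their values were not normalized. Tools in the submitters' processing notes, listed there without a role, were HISAT2 2.1.0, Trim Galore 0.6.5, Picard 2.18.2 and CASAVA 1.8, with the build mm10. The labels describe neither the counting tool and annotation nor the strand setting and handling of duplicates (not given in the sources used here). Reads of genes that overlap, on one strand or on both, may therefore be mixed. No molecular identifiers are named, so floors cover counting error only.

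Gene IDs were matched without version to GENCODE M21 (53620 of 53715). CPM and TPM were computed here from the counts. Tests used edgeR 4.0.16 (TMM, filterByExpr, quasi-likelihood F-test, group only, two-sided, adjusted over all genes tested) in R 4.3.3, with DESeq2 1.42.0 and limma 3.58.1 (voom) as alternatives. On simulated counts of 23709 genes, edgeR called 2 of 50 genes changed 1.5-fold, 19 of 50 changed 2-fold, 47 of 50 changed 4-fold and 50 of 50 changed 8-fold, with 4 false calls. The changed genes were drawn from those of at least 10 CPM on average, so genes of lower level are not covered. Each gene varied independently, so a shift shared by many genes of a library was not simulated. The 50-base comparison used the strand of the transcripts. An exact permutation test of 2 against 2 libraries cannot go below p = 0.333 (two-sided) and was not used.

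Alternatives were other scalings, filters and tools, each library left out, the replicate number as a block, and other gene lengths. Rps19bp1 was left out of summaries. Named genes are the 5 of each subunit with the highest TPM, the 5 lowest in CPM above 0, the 4 smallest p in each direction, the 3 largest differences between knockdown replicates at 10 CPM or more, all paralog pairs, and 2 genes per direction of each pathway list. Members and lists were chosen with earlier results of these data known. A few genes that the rule names are not reported here.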

Additional observations from a re-analysis of the deposited data

How the results depend on the processing

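No ribosomal protein gene was called under any alternative run. Over all genes, edgeR's calls of 0 higher and 0 lower became 20 and 33 with DESeq2 without a low-count filter, and 0 to 2 higher and 0 to 1 lower when 1 library was left out. The median log2 fold change of the ribosomal protein genes, -0.16, lay between -0.15 and -0.19 under other scalings, filters, tools and memberships. Leaving out 1 library moved it from -0.51 (without knockdown replicate 1) to 0.11 (without knockdown replicate 2), with 0.0047 without control replicate 2 and -0.28 without control replicate 1; where 1 library is left in a group, it is assumed to vary like the other group. The summed level, log2 -0.13, ran from -0.38 (without knockdown replicate 1) to 0.077 (without knockdown replicate 2). Without knockdown replicate 1, 32 of 89 genes had an unadjusted p under 0.05 by edgeR on the lower side, with a smallest adjusted p of 0.146, against 13.1% of all genes tested in that fit in either direction; without knockdown replicate 2, 2 were lower and 7 higher, against 8.02%. The direction of 15 of the 33 named genes changed without knockdown replicate 2 and of 9 without control replicate 2. Some of these genes were named for their difference between the knockdown replicates, and the share over all genes was not counted. The labels give no pairing, and same-numbered libraries deviated with a correlation of -0.21 over 8185 genes; with the replicate block there were 0 calls and the median was -0.19. The median without paralogs and retrocopies, -0.17, and the summed level without Rps27l, -0.15, were chosen after seeing the data. With 2 libraries per group, outlying samples within a group cannot be tested; how read assignment and depth each limit counts of genes near-identical to pseudogenes was not tested.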

Other observations

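Among the pseudogenes named for ribosomal protein genes, those of Rpl17 were the most abundant. Rpl17-ps10 on chromosome 7 had 23.4 and 17.2 CPM in control and 16.3 and 21.1 CPM in knockdown, and Rpl17-ps5 on chromosome 5 had 15.2, 11.6, 11.4 and 13.7 CPM. Rpl17 itself had 28.5, 46.5, 37.7 and 29.4 CPM, so that in both groups the library with more Rpl17 counts had fewer counts of these 2 pseudogenes. Rpl7a-ps11 on the X chromosome had 13.6 and 11.9 CPM in control and 18.8 and 18.2 CPM in knockdown, more than Rpl7a itself in control replicate 1 and in both knockdown libraries. Rpl19-ps3 on chromosome 14, a transcribed processed pseudogene, had 14.5, 9.13, 11.4 and 15.0 CPM, with its lowest value in control replicate 2, while Rpl19 was lowest in knockdown replicate 2. These rows were singled out after their values were seen, and how reads shared with the parent genes were counted is not stated in the labels.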
